A study of Mus musculus with 6 samples.

Results

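The genes described here are 9 that carry leukocytes from the blood into tissue: the selectins *Sele* and *Selp*, the integrin ligands *Icam1* and *Vcam1*, the venous chemokine receptor *Ackr1*, the selectin ligand *Selplg*, and the integrin subunits *Itgam*, *Itgal* and *Itgb2*. They were taken by symbol from the gene list of the deposited tables, which held all 9 among 31053 genes. The tables hold droplet single-cell RNA sequencing of skin from the back of mice, with 2 libraries for each of Sham, IMQ and IMQ+SHP099, 6 in all. All mice were female C57BL/6J, 8 to 10 weeks old. The Sham mice are labelled as untreated. The IMQ mice received 62.5 mg of 5% imiquimod cream, an agonist of the receptor TLR7 that gives psoriasis-like inflammation, on shaved back skin daily for 4 days and were killed 1 day after the last dose. The IMQ+SHP099 mice received the same cream and, by mouth for 4 days, 10 mg/kg of SHP099, which inhibits the phosphatase SHP2. Each library pooled several mice, so the library is the replicate (n = 2 per group), and p-values measure the spread between libraries only.

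Leukocytes leave blood mostly through postcapillary venules. Selectins on the vessel wall slow the passing cell by binding sugars on PSGL-1, the product of *Selplg*; chemokines then switch leukocyte integrins to their active form, and these hold the cell by binding ICAM-1 and VCAM-1. The integrin LFA-1 joins the products of *Itgal* and *Itgb2*, and Mac-1 those of *Itgam* and *Itgb2*.

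Cells were assigned to classes by marker lists that contain none of the 9 genes, and 46177 of 50850 kept cells (90.8%) were assigned. Levels are CPM, here the counts-per-million of a gene's UMIs (counted molecules) among all UMIs of a class in a library. The vessel classes were small. Blood endothelial cells numbered 22 and 354 in the Sham libraries, 61 and 64 under IMQ, and 16 and 36 with IMQ+SHP099, 553 in all. Lymphatic endothelial cells numbered 63 to 172 per library. Neutrophils were 0 and 7 in the Sham libraries, 153 and 314 under IMQ, and 7 and 87 with IMQ+SHP099. The leading genes of the blood endothelial class were *Cd36*, *Plvap*, *Fabp4*, *Pecam1* and *Cdh5*, and those of the lymphatic class *Ccl21a*, *Mmrn1*, *Cldn5*, *Lyve1* and *Flt4*. Total depth was 53913865 to 188283327 UMIs per library. Sham replicate 1 and IMQ+SHP099 replicate 1 stood apart: keratinocytes were 6110 and 5356 of their cells against 398 to 1548 in the other libraries, and the summed level of the keratinocyte markers in their endothelial cells was 532 and 509 CPM against 90.0 to 199. Pairs of libraries shared at most 0.523% of the barcodes of the smaller library.

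E-selectin and P-selectin transcripts were nearly confined to blood vessels. Blood endothelial cells were 1.09% of kept cells and held 565 of the 632 *Sele* UMIs (89.4%) and 1996 of the 2268 *Selp* UMIs (88.0%). *Sele* (ENSMUSG00000026582, chr1:164048234-164057677, plus strand) makes the selectin that endothelium builds anew when activated. *Selp* (ENSMUSG00000026580, chr1:164115264-164150026, plus strand) makes the selectin that endothelium and platelets keep in storage granules. Both are protein-coding, with coordinates on GRCm38 from GENCODE vM21. They lie close together on chromosome 1, and over 65 sums of a class in a library (at least 20 cells each) their log2 levels had a Pearson r of 0.91, the highest between any pair of the 9 genes apart from that of *Selplg* and *Itgb2* (0.95). Such sums share libraries and cell classes, so r is given as a description.

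The 250 bases before the RefSeq start site (GRCm38.p6, plus strand) of these genes, at chr1:164047984-164048233 and chr1:164115014-164115263, are printed because both genes were detected in the same cells, and that of *Icam1*, at chr9:21015690-21015939, because it was not limited to vessels. Capitals mark matches on either strand to a kappaB-like motif (GGNNNTTCC), an AP-1 motif (TGANTCA) or a STAT-type GAS motif (TTCNNNGAA).
Sele: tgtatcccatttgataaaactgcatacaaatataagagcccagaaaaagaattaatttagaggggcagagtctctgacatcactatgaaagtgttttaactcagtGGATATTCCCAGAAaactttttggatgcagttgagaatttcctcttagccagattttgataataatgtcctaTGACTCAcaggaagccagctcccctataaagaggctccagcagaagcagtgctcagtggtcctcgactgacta
Selp: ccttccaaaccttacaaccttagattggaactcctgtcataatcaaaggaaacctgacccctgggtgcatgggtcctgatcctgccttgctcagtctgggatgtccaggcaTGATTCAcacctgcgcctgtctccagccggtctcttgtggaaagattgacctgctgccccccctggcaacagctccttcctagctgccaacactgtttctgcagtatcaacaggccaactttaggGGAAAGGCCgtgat
Icam1: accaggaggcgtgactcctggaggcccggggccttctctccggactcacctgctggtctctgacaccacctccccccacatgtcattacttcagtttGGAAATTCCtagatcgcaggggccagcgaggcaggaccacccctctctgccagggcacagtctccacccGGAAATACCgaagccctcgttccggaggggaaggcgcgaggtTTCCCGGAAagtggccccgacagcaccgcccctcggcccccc
The *Sele* window held 1 match to each motif, and its kappaB-like and GAS matches overlapped. The *Selp* window held a kappaB-like and an AP-1 match, and the *Icam1* window 2 kappaB-like matches and 1 GAS match. Among 32851 windows of equal length, 15.7% held the kappaB-like motif, 6.75% the AP-1 motif and 7.02% the GAS motif. A match is a description of the letters and not a measured binding site.

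In blood endothelial cells *Sele* stood at 8.83 and 86.4 CPM in the Sham libraries, 170.2 and 143.9 under IMQ, and 55.3 and 135.6 with IMQ+SHP099. The IMQ libraries lay above the other 4. *Selp* stood at 17.7 and 289.8 in the Sham libraries, 528.5 and 636.7 under IMQ, and 31.6 and 423.7 with IMQ+SHP099, in the same order of groups, with 1 low library in Sham and with IMQ+SHP099. The share of these cells with a *Selp* UMI was 4.55% and 14.1% in the Sham libraries, 47.5% and 46.9% under IMQ, and 12.5% and 33.3% with IMQ+SHP099. The exact 95% interval of the Sham replicate 2 share was 10.7% to 18.2%, and those of the IMQ shares reached from 34.3% to 60.7%. Intervals cover counting error only. With each cell thinned to 2000 UMIs the shares were 5.26% and 11.8%, 39.3% and 33.9%, and 8.33% and 27.3%. In keratinocytes, which should lack the gene, 0% to 0.390% of cells had a *Selp* UMI, at median depths of 10041.5 to 35427.5 UMIs against 3389 to 14984.5 in blood endothelial cells.

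**Figure D1:**
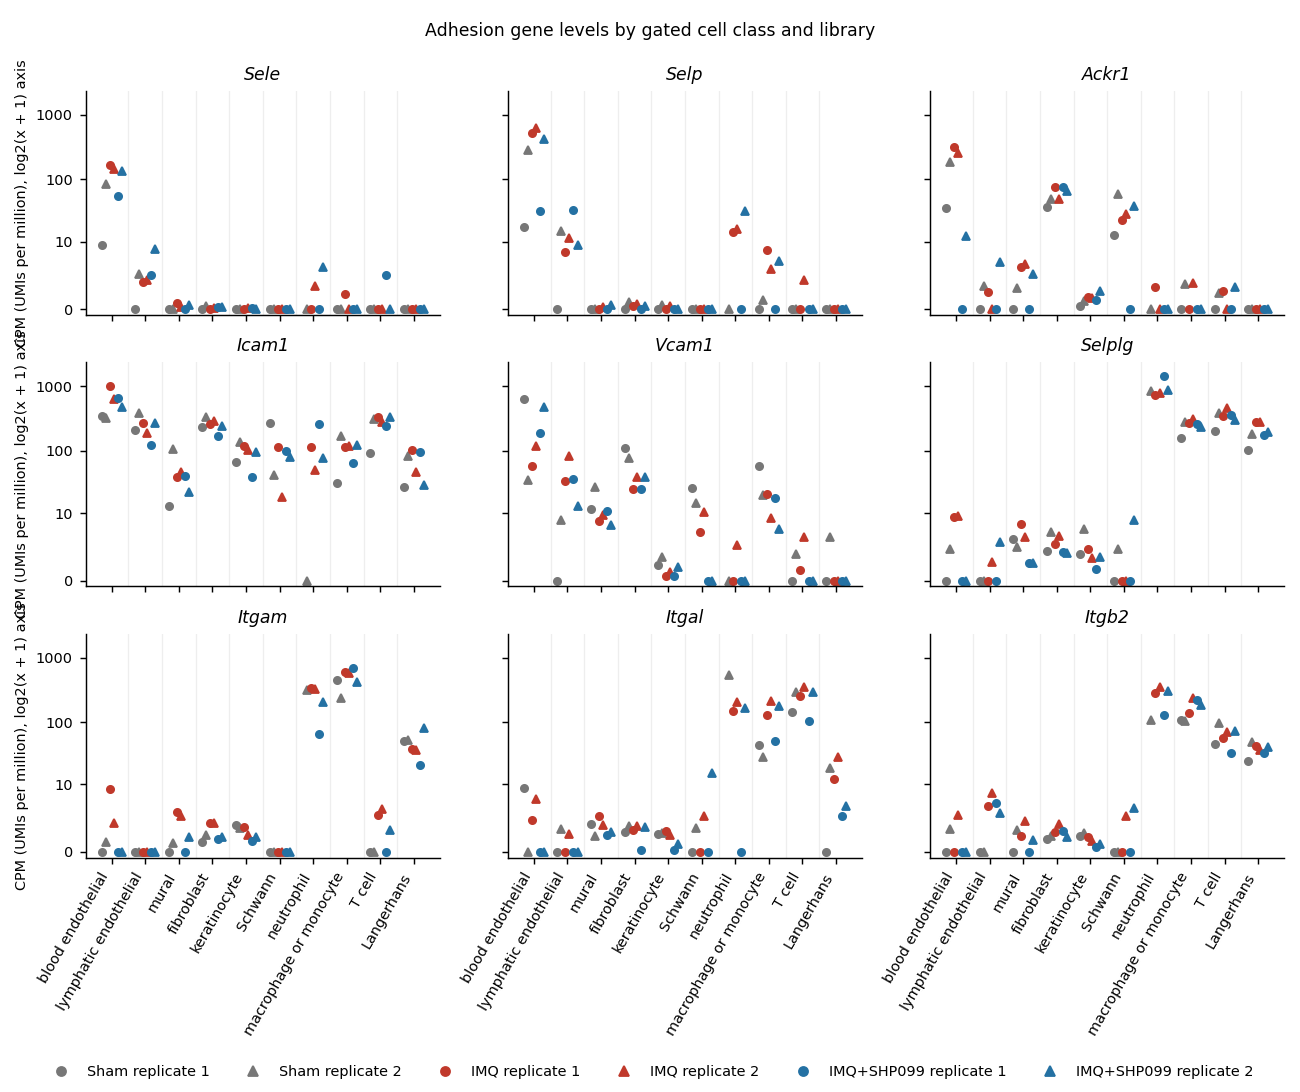
Levels of the 9 genes (vertical axis, CPM on a log2(x + 1) scale) in 10 cell classes, with 1 point per library of at least 7 cells of the class. *Sele* and *Selp* are high in blood endothelial cells and below 10 CPM elsewhere, apart from *Selp* in lymphatic endothelium and neutrophils, while *Icam1* is found in every class and *Selplg*, *Itgam*, *Itgal* and *Itgb2* are highest in leukocyte classes, with *Itgam* low in T cells and *Itgal* low in Langerhans cells.

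Within the endothelium the genes differed by vessel segment. Blood endothelial cells were split by segment markers (*Nr2f2*, *Vwf*, *Lrg1*, *Aplnr* and *Ephb4* for venous cells), giving 125 venous, 173 capillary and 124 arterial cells and 131 with no segment. Over all libraries *Sele* stood at 363.5 CPM in venous cells and 17.4 in capillary cells. No *Sele* UMI was found in the 124 arterial cells, which allows up to 2.42% of them with a UMI at this depth and a level of up to 2.96 CPM (3 counts). *Selp* stood at 1190.5 in venous, 82.2 in capillary and 48.4 in arterial cells. *Ackr1* (ENSMUSG00000037872, chr1:173331886-173333750, minus strand), an atypical receptor that binds chemokines without signalling and marks venules, stood at 702.0, 2.67 and 0.987. *Vcam1* (ENSMUSG00000027962, chr3:116109949-116129688, minus strand), the ligand of the integrin VLA-4, had another order: 324.8 in arterial, 95.4 in venous and 3.34 in capillary cells. *Icam1* (ENSMUSG00000037405, chr9:21015985-21028817, plus strand), the ligand of LFA-1 and Mac-1, was found in all segments, at 713.4 in venous, 458.2 in capillary and 447.2 in arterial cells. These orders were seen in each library that had at least 7 venous cells (4 of 6) for *Sele*, *Selp* and *Ackr1* between venous and arterial cells, and in 3 of those 4 for *Vcam1*, the exception being Sham replicate 2 with 72.1 in arterial and 88.2 in venous cells. With 4 such libraries an exact paired test cannot pass 0.05, and none was run.

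The venous selectins were found in the same cells. Of the 80 blood endothelial cells with a *Sele* UMI, 73 (91.2%) also had a *Selp* UMI, against 51 of the 473 without (10.8%). Of the 84 cells with an *Ackr1* UMI, 76 (90.5%) had *Selp* and 56 (66.7%) had *Sele*, against 10.2% and 5.12% of the 469 cells without *Ackr1*. *Icam1* was found in 75 of the 80 *Sele* cells (93.8%) and in 48.4% of the others. Deeper cells give more pairs of detected genes, and these cells come from few libraries, so the counts are descriptive.

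The makeup of the blood endothelial class differed between libraries. Venous cells were 4.55% and 21.8% of it in the Sham libraries, 31.1% and 32.8% under IMQ, and 0% (0 of 16 cells, which allows a share of up to 18.8%) and 19.4% with IMQ+SHP099. Arterial cells were 77.3% and 11.9%, 16.4% and 34.4%, and 56.2% and 66.7%. Within venous cells *Sele* stood at 323.0 in Sham replicate 2 (77 cells), 386.1 and 399.8 in IMQ (19 and 21 cells) and 512.6 in IMQ+SHP099 replicate 2 (7 cells). *Selp* in these cells stood at 1069.8, 882.5 and 1578.3, and 1361.5. *Selp* of Sham replicate 2, which over the whole blood endothelial class lay below both IMQ libraries, lay between them in venous cells. The part of makeup in the group differences was not tested.

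**Figure D2:**
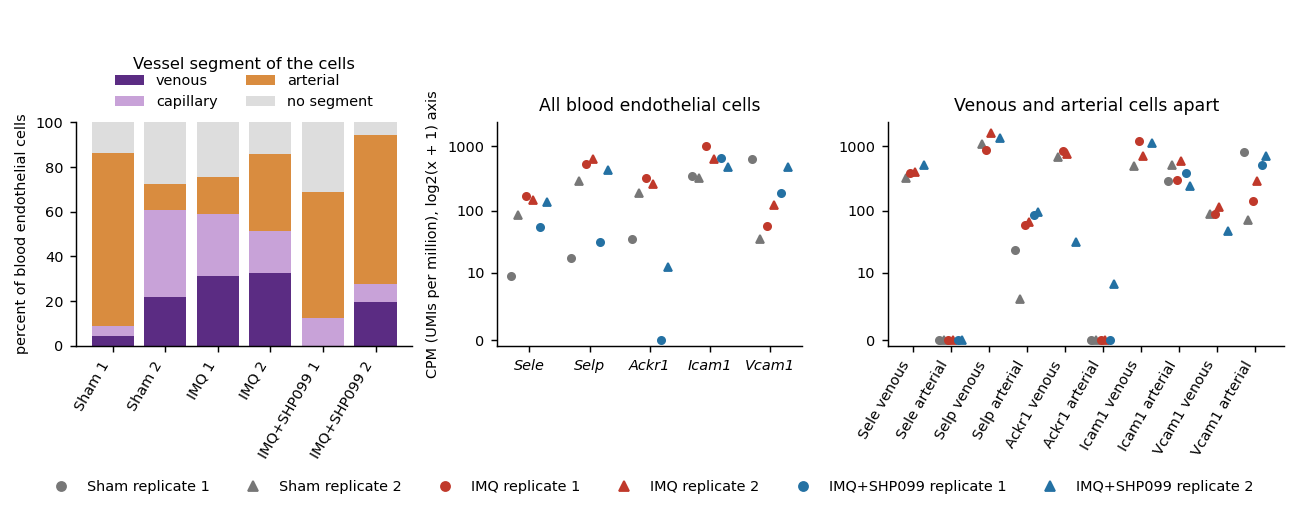
Left, the share of blood endothelial cells of each library gated as venous, capillary, arterial or no segment (percent). Middle and right, levels of the 5 ligands per library (CPM, log2(x + 1) scale), in all blood endothelial cells and in venous and arterial cells apart, for library and segment pairs of at least 7 cells. *Sele* is at 0 in arterial cells of every library, *Ackr1* at 0 in all but IMQ+SHP099 replicate 2 (6.33), and *Vcam1* is higher in arterial than in venous cells in 3 of the 4 libraries with both points.

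Against the other structural classes, *Sele* and *Selp* were higher in endothelium (blood and lymphatic together) in 6 of 6 libraries, by 4.91 ± 1.66 and 6.31 ± 2.0 (mean difference ± SD of log2(CPM + 1), n = 6) over fibroblasts. By the exact paired permutation test over libraries, two-sided, with 23 class comparisons adjusted together, p was 0.03125, the smallest that 6 libraries can give, and adjusted p was 0.0378 for both. The same p held for both genes against mural cells and keratinocytes. With cells thinned, the 3 *Sele* comparisons missed the threshold (adjusted p = 0.0719 each by the exact paired permutation test).

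*Ackr1* was counted mostly outside vessels, and its fibroblast count is uncertain. Fibroblasts held 10226 of its 11957 UMIs (85.5%) and were 38.7% of kept cells. They stood at 37.5 and 49.0 CPM in the Sham libraries, 75.9 and 48.7 under IMQ, and 75.4 and 66.1 with IMQ+SHP099, and 7.51% to 11.01% of thinned fibroblasts had a UMI, against at most 0.256% of thinned keratinocytes. The 5′ part of *Ackr1* overlaps the end of *Cadm3*, an adhesion gene on the same strand (chr1:173333258-173367695), over 493 bases. *Cadm3* was found in 71.7% of the 5536 fibroblasts with an *Ackr1* UMI and in 28.7% of the 14119 without. How reads within the overlap were counted is not known. The rest of *Ackr1*, with its 3′ end, lies outside the overlap. In blood endothelial cells the *Cadm3* level was 34.7 CPM against 212.9 for *Ackr1*, and 56.0% of *Ackr1* cells but 1.49% of the others had a *Cadm3* UMI. The difference in *Ackr1* between endothelium and fibroblasts missed the threshold of the exact paired permutation test (endothelium higher in 3 of 6 libraries, -1.19 ± 3.1 on the log2 scale, adjusted p = 0.406).

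In blood endothelial cells *Ackr1* stood at 35.3 and 188.3 in the Sham libraries, 318.2 and 261.4 under IMQ, and 0 and 12.7 with IMQ+SHP099. These are 4, 449, 301, 287, 0 and 3 UMIs, and a count of 0 in IMQ+SHP099 replicate 1 allows up to 23.7 CPM. In all endothelium the log2 fold change of IMQ+SHP099 against IMQ was -5.03 (SE 0.95), with an edgeR adjusted p of 0.458 over 10005 genes and an unadjusted p of 4.85e-04. Adjusted p was 0.0242 when only these groups were fitted (edgeR). The share of all genes passing in that fit is not given, so this pass is not a result about the gene. In the venous cells of IMQ+SHP099 replicate 2 the level was 32.0 (2 UMIs in 7 cells), against 693.3 in Sham replicate 2 and 840.0 and 747.1 in IMQ. *Sele* and *Selp* in the same 7 cells were not low. The other IMQ+SHP099 library held no venous cell.

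ICAM-1 transcripts were widespread. Blood endothelial cells had the highest median level over libraries (556), followed by T cells (299), fibroblasts (250.4) and lymphatic endothelium (240.0), and the ranges of these last classes overlapped (92.9 to 332, 167.1 to 336.6 and 124.5 to 391.5). Fibroblasts held 54.7% of the 87640 *Icam1* UMIs and were 38.7% of kept cells, and keratinocytes held 27.2% and were 30.3%. In blood endothelial cells *Icam1* stood at 344.3 and 322.5 in Sham (333 ± 15.4, mean ± SD, n = 2), 1003.1 and 628.5 in IMQ (816 ± 265), and 647.5 and 483.1 with IMQ+SHP099 (565 ± 116), with no overlap between Sham and the other groups. In venous cells it was 491.6 in Sham replicate 2 and 1196.4 and 712.9 under IMQ, and in capillary cells of the same libraries 141.6 against 1038.1 and 525.4, while arterial cells overlapped (285.6 and 521.2 against 303.6 and 593.0). Endothelium exceeded mural cells by 3.19 ± 0.96, keratinocytes by 1.97 ± 0.46 and fibroblasts by 0.47 ± 0.40 on the log2 scale (n = 6, 6 of 6 libraries each, adjusted p = 0.0378 each by the exact paired permutation test). The excess over fibroblasts was -0.12 with thinned cells and 0.15 with TMM factors across classes (adjusted p = 0.25 and 0.5, exact paired permutation test).

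When the 4 Sham and IMQ libraries were fitted on blood endothelial cells alone, a fit added after the numbers of cells were seen, 0 of the 5 ligands passed at an edgeR adjusted p of 0.05 (4 at an unadjusted p under 0.05), beside 6 of all 8568 genes (0.07%). The log2 fold changes of IMQ against Sham were 1.45 (SE 0.53) for *Sele*, 1.87 (SE 0.74) for *Selp*, 1.32 (SE 0.54) for *Ackr1*, 1.42 (SE 0.39) for *Icam1* and -1.70 (SE 1.13) for *Vcam1*, with edgeR adjusted p of 0.210, 0.232, 0.245, 0.147 and 0.430. These values rested on single libraries, and no share of all genes at an unadjusted p under 0.05 is given beside the unadjusted counts. Without Sham replicate 1, 5 of 5 ligands passed, as did 20.3% of all genes, and the change of *Vcam1* was 1.59. Without Sham replicate 2, 4 passed beside 3.0% of all genes, and the changes were 4.15 for *Sele*, 5.05 for *Selp*, 3.06 for *Ackr1* and -2.82 for *Vcam1*. Without IMQ replicate 1, 0 passed by edgeR beside 0.0312% of all genes (0 at an unadjusted p under 0.05, adjusted p = 0.997 for each). Without IMQ replicate 2, 0 passed by edgeR beside 0.858% (5 at an unadjusted p under 0.05). In all endothelium together the changes were 0.83 (SE 0.57), 1.26 (SE 0.83), 0.71 (SE 0.61), 0.82 (SE 0.30) and -0.55 (SE 0.84) in the same order of genes, and the lowest edgeR adjusted p was 0.267, for *Icam1*. Blood endothelial cells were 25.9% and 77.0% of that class in the Sham libraries, 27.1% in each IMQ library, and 15.0% and 25.2% with IMQ+SHP099. For IMQ+SHP099 against IMQ the changes of *Sele*, *Selp*, *Icam1* and *Vcam1* were -1.32 (SE 0.63), -1.84 (SE 0.87), -0.79 (SE 0.30) and 0.54 (SE 0.81), each with an edgeR adjusted p of 1.00.

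The order of the groups for VCAM-1 transcripts was not the same in all structural classes. In blood endothelial cells it stood at 635.6 and 35.2 in the Sham libraries, 57.1 and 120.2 under IMQ, and 189.5 and 478.8 with IMQ+SHP099. The order of the 6 libraries was that of their arterial share, from 77.3% in Sham replicate 1 down to 11.9% in Sham replicate 2. In arterial cells alone, 9 to 42 per library, the level ranged from 72.1 to 821.1 in the same order. The part of makeup in the order of the libraries was not tested. In lymphatic endothelium *Vcam1* stood at 0 and 7.68 in Sham (0 and 6 UMIs), 33.6 and 83.5 in IMQ (41 and 92 UMIs), and 35.9 and 13.3 with IMQ+SHP099. Few cells carried it, 7 of 164 and 15 of 172 in IMQ. The log2 fold change of IMQ against Sham was 3.34 (SE 0.73), with an edgeR adjusted p of 0.0664. The change missed the threshold in this planned fit and passed in some alternatives, DESeq2 and the stricter gate among them. The share of all genes passing in those alternatives is not given, so these passes are not a result about the gene. In fibroblasts *Vcam1* stood at 111.9 and 76.7 in Sham (94.3 ± 24.9, mean ± SD, n = 2), 24.9 and 38.2 in IMQ (31.5 ± 9.36), and 24.8 and 38.7 with IMQ+SHP099 (31.7 ± 9.80). Both treated groups lay below both Sham libraries, the log2 fold change of IMQ against Sham was -1.57 (SE 0.38), and the edgeR adjusted p was 0.15. The change passed with DESeq2 and with no filter on low counts, again with no share of all genes passing beside it. The log2 fold change of IMQ+SHP099 against IMQ was 0.09 (SE 0.37). In mural cells, the pericytes and smooth muscle around vessels, the levels were low, at 11.7 and 26.7, 7.46 and 9.19, and 11.1 and 6.26. Endothelium exceeded mural cells by 2.79 ± 1.52 and keratinocytes by 5.74 ± 1.18 on the log2 scale (n = 6, 6 of 6 libraries each, adjusted p = 0.0378 each by the exact paired permutation test), while the difference from fibroblasts was 0.84 ± 1.15 (5 of 6 libraries, adjusted p = 0.163 by that permutation test). The difference from mural cells missed the threshold among cells under 5% mitochondrial UMIs (adjusted p = 0.0685, exact paired permutation test).

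**Figure D3:**
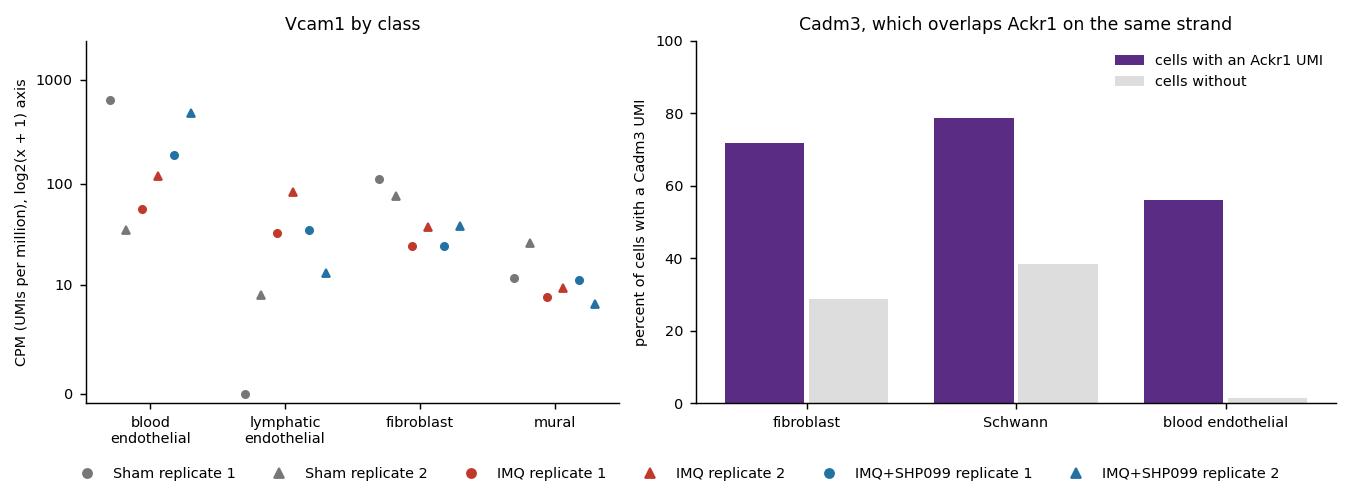
Left, *Vcam1* levels per library (CPM, log2(x + 1) scale) in 4 structural classes. The IMQ libraries lie above Sham in lymphatic endothelium (33.6 and 83.5 against 0 and 7.68) and below Sham in fibroblasts (24.9 and 38.2 against 111.9 and 76.7). Right, the percent of cells with a *Cadm3* UMI among cells with and without an *Ackr1* UMI in 3 classes, which is higher beside *Ackr1* in each.

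Turning to the leukocyte side, *Selplg* (ENSMUSG00000048163, chr5:113818536-113832644, minus strand) was highest in neutrophils, with 727.3 and 791.4 CPM in IMQ and 875.0 in IMQ+SHP099 replicate 2. It was found in 91.5%, 90.4% and 89.7% of these neutrophils. The Sham and the other IMQ+SHP099 value rest on 7 cells each. T cells ranged from 205.0 to 453.6 and macrophages or monocytes from 158.5 to 308.1. T cells were higher in 6 of 6 libraries, by 0.44 ± 0.08 on the log2 scale (macrophage or monocyte minus T cell -0.44, adjusted p = 0.0378, exact paired permutation test), and the difference was -0.17 with adjusted p = 0.0719 by that permutation test when TMM factors were used across classes. In Langerhans cells, the dendritic cells of the epidermis, *Selplg* stood at 103.2 and 183.7 in the Sham libraries, 278.6 and 283.0 under IMQ, and 177.7 and 196.9 with IMQ+SHP099. The IMQ libraries were the highest, and the log2 fold change against Sham was 1.11 (SE 0.31, edgeR adjusted p = 0.0972).

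*Itgam* (ENSMUSG00000030786, chr7:128062640-128118491, plus strand) marked myeloid cells. Its levels were 232.9 to 684.6 in macrophages or monocytes and 325.8 to 340.3 in IMQ neutrophils, and 20.6 to 82.0 in Langerhans cells. T cells had 9 *Itgam* UMIs in 4 of 1716 cells. The difference between macrophages or monocytes and T cells was 8.0 ± 0.94 on the log2 scale (n = 6, 6 of 6 libraries, adjusted p = 0.0378, exact paired permutation test). The gene shares 55809 bases with *Gm49368*, a protein-coding gene on the same strand with 247 UMIs against 8184 for *Itgam*, and reads in the overlap are uncertain. *Itgb2* (ENSMUSG00000000290, chr10:77530252-77565708, plus strand), the shared beta subunit, stood at 278.9 and 345.6 in IMQ neutrophils, 102.9 to 240.4 in macrophages or monocytes, 32.7 to 97.2 in T cells and 24.3 to 48.7 in Langerhans cells. Macrophages or monocytes exceeded T cells in 6 of 6 libraries by 1.40 ± 0.86 (adjusted p = 0.0378, exact paired permutation test). *Itgal* (ENSMUSG00000030830, chr7:127296260-127335138, plus strand) was led by T cells, at 145.4 and 288.5 in the Sham libraries, 255.7 and 351.6 under IMQ, and 102.8 and 289.8 with IMQ+SHP099. T cells exceeded macrophages or monocytes in 6 of 6 libraries (difference of macrophages or monocytes minus T cells -1.41 ± 1.00, adjusted p = 0.0378, exact paired permutation test). *Itgb2* was detected in 71.9% of the 345 neutrophils with *Itgam* and 58.3% of the 223 without, and in 27.6% of the 787 T cells with *Itgal* and 10.9% of the 929 without.

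Across the 8 named classes in which every library held at least 20 cells, 42 tests of the 9 genes were made for each contrast. Lymphatic endothelium was fitted alone and also within all endothelium, so its cells enter these totals more than once. Leukocytes that no subset gate took, 71 to 422 per library, were not tested, and they held 25.7% of the *Selplg*, 26.1% of the *Itgal* and 25.1% of the *Itgb2* UMIs. For IMQ against Sham 1 passed an edgeR adjusted p of 0.05 (11 at an unadjusted p under 0.05), beside 2956 of 82886 tests of all genes (3.57%), most of them in keratinocytes. For IMQ+SHP099 against IMQ 0 passed by edgeR (8 at an unadjusted p under 0.05, 0 by DESeq2), beside 1 of 82886 (0.00121%). These all-gene shares are at the adjusted threshold. The unadjusted counts, here and for the list below, have no all-gene share beside them and are not a result about the genes. The contrasts share the IMQ libraries.

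The gene that passed was *Itgal* in macrophages or monocytes. It stood at 44.4 and 27.9 CPM in Sham (36.1 ± 11.7, mean ± SD, n = 2), 128.5 and 209.4 in IMQ (169 ± 57.2), and 49.9 and 179.8 with IMQ+SHP099 (115 ± 91.9). Both IMQ libraries lay above both Sham libraries, and the IMQ+SHP099 libraries were far apart. The log2 fold change of IMQ against Sham was 2.57 (SE 0.60, edgeR adjusted p = 0.0369), in a class where 394 of 9290 genes passed (4.24%). The call was lost without Sham replicate 1 (edgeR adjusted p = 0.0665), Sham replicate 2 (0.471) or IMQ replicate 2 (0.124), and with a stricter gate (0.116). For IMQ+SHP099 against IMQ the change was -0.36 (SE 0.50, edgeR adjusted p = 1.00). *Itgam* and *Itgb2* had changes of 0.91 (SE 0.41) and 0.98 (SE 0.37) for IMQ against Sham, with edgeR adjusted p of 0.287 and 0.189, and *Selplg* 0.51 (SE 0.34, edgeR adjusted p = 0.489). The median over the 6 genes of the list tested in this class was 0.71, against 0.00 over all genes.

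The makeup of this class also moved with the groups. Cells with a UMI of *Ly6c2*, a marker of inflammatory monocytes, were 9.09% and 10.1% of it in the Sham libraries, 60.3% and 68.5% under IMQ, and 24.0% and 79.0% with IMQ+SHP099, and the summed level of the complement genes *C1qa*, *C1qb* and *C1qc*, which mark resident macrophages, was 10743 and 4903, 2440 and 2334, and 9144 and 1536 CPM. Within the cells without a *Ly6c2* UMI, *Itgal* stood at 49.6 and 23.6 in the Sham libraries, 127.9 and 193.0 under IMQ, and 38.4 and 274.7 with IMQ+SHP099. Within those with one it stood at 72.7 in Sham replicate 2 (45 cells) and 128.8 and 216.3 in IMQ, where Sham replicate 1 held 4 such cells and no *Itgal* UMI. Both IMQ libraries lay above the Sham values in each stratum, with Sham replicate 2 alone to compare among cells with a *Ly6c2* UMI. The split by a *Ly6c2* UMI also depends on the depth of a cell. The summed level of the T cell list was 12.7 and 50.1 CPM in the Sham libraries, 29.0 and 13.1 under IMQ, and 63.5 and 39.3 with IMQ+SHP099, and that of the neutrophil list 25.4 and 37.5, 418.4 and 371.4, and 204.0 and 378.2. In the neutrophils of the IMQ libraries *Itgal* itself stood at 148.7 and 202.5 CPM. The parts of class makeup and of neutrophil RNA in the *Itgal* change were not tested.

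**Figure D4:**
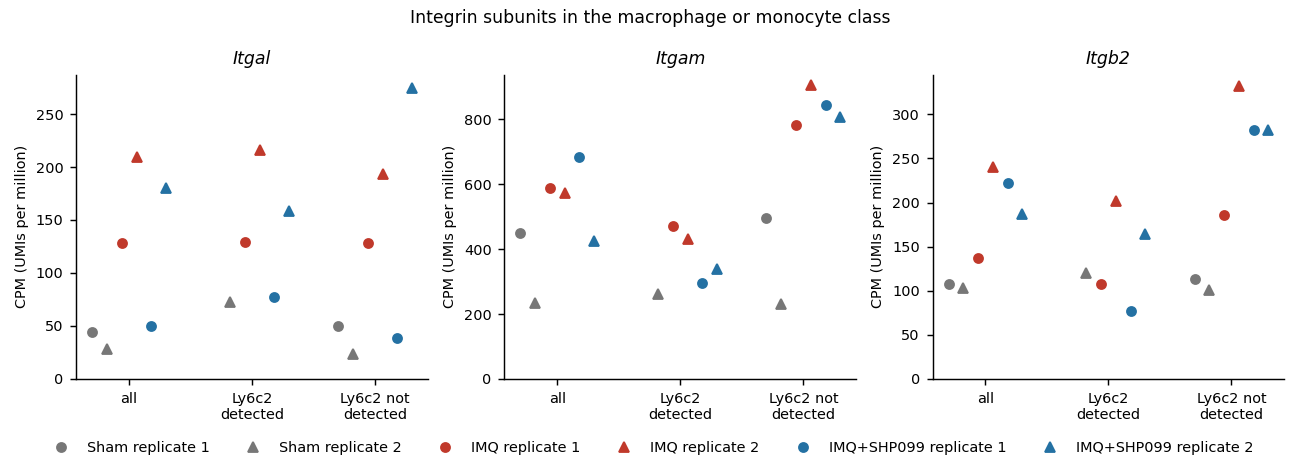
*Itgal*, *Itgam* and *Itgb2* levels per library (CPM, linear axis from 0) in all macrophages or monocytes and in the cells with and without a *Ly6c2* UMI, for library and stratum pairs of at least 7 cells. *Itgal* is higher in both IMQ libraries than in Sham in all cells and in each stratum, and the IMQ+SHP099 libraries are apart.

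The other genes of the adhesion cascade were followed as a list of 42 (other ligands and junction proteins, selectin ligands and the enzymes that build them, other leukocyte receptors, and integrin activators). Over the 8 classes 226 tests were made for each contrast. For IMQ against Sham 9 were higher and 4 lower at an edgeR adjusted p of 0.05, beside the 3.57% of all tests, and for IMQ+SHP099 against IMQ 0 (5 at an unadjusted p under 0.05 by edgeR). In macrophages or monocytes 6 of 30 tested genes rose and 2 fell, beside the 4.24% of all genes that passed there. The rises included *F11r*, a junctional adhesion molecule (log2 fold change 2.83, SE 0.47, edgeR adjusted p = 0.00893), and *Rasgrp2*, an exchange factor that activates integrins through Rap1 (3.14, SE 0.59, adjusted p = 0.0146). *Cd226*, a receptor for nectin-like proteins, fell by 3.99 (SE 0.59, edgeR adjusted p = 0.00594) and *Itgax*, the alpha subunit CD11c, fell by 2.85 (SE 0.49, adjusted p = 0.00977). The median change of the tested list genes in this class was 0.53. In keratinocytes, where 2318 of 14176 genes passed (16.4%), *Cd24a*, a P-selectin ligand, rose (1.57, SE 0.31, edgeR adjusted p = 0.0125), as did *St3gal4*, a sialyltransferase that builds selectin ligands (1.23, SE 0.35, adjusted p = 0.0470). *Fermt3*, the leukocyte kindlin (-2.13, SE 0.55, edgeR adjusted p = 0.0325), and *Itgax* (-2.92, SE 0.79, adjusted p = 0.0380) fell there. The summed level of the leukocyte markers in keratinocytes was 111 and 61.1 CPM in the Sham libraries, 43.5 and 28.0 under IMQ, and 12.6 and 16.5 with IMQ+SHP099.

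*Selp* was also found outside endothelium. Of neutrophils, 11 of 153 and 23 of 314 in IMQ and 8 of 87 in IMQ+SHP099 replicate 2 had a *Selp* UMI (7.19%, 7.32% and 9.20%), and none of the 7 in Sham replicate 2 or of the 7 in IMQ+SHP099 replicate 1. Thinned to 2000 UMIs the first 3 shares were 3.55%, 3.23% and 6.85%. Keratinocytes of the same libraries had 0.0805%, 0.390% and 0% at median depths of 35427.5, 32334.5 and 23161.5 UMIs against 4490, 4320.5 and 3116 in the neutrophils, and macrophages or monocytes 3.94%, 2.27% and 2.47%. In these neutrophils the platelet genes *Ppbp*, *Gp9* and *Gp1bb* had 0 UMIs. Platelets are the best known carriers of P-selectin in blood. Platelet markers entered the gate as a rival lineage, and *Itga2b*, another of them, is not given here. The source of the neutrophil *Selp* UMIs was not tested.

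By likeness of level over the same 65 sums, with 15920 genes compared, the genes nearest to *Sele* were *Tmem252* (r = 0.93), *Tacr1* (0.93) and *Selp*, and those nearest to *Selp* were *Sele*, *Tmem252* (0.86) and *Bmx* (0.82). *Ackr1* was nearest to *Plscr2* (0.83), *Col15a1* (0.82) and *Jam2* (0.81), and *Vcam1* to *Iigp1* (0.82), *Gm4951* (0.81) and *Rrbp1* (0.81). *Icam1* had no close partner, with *Gbp9* (0.65), *Prkd2* (0.65) and *H2-T22* (0.64). Of the leukocyte genes, *Selplg* was nearest to *Cd53* (0.98), *Cd52* (0.98) and *Coro1a* (0.98), all 3 of them gate markers, *Itgam* to *Pirb* (0.98), *Syk* (0.95) and *Nfam1* (0.95), *Itgal* to *Atp8b4* (0.95), *Arhgap4* (0.94) and *Gpr65* (0.93), and *Itgb2* to *Myo1f* (0.96), *Lcp2* (0.96) and *Nckap1l* (0.95). The points share libraries, depth and cell class.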

How the data were processed

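Skin cells of 6 libraries (2 per group, each pooling several mice) were measured by 10x Chromium sequencing from the 3′ end. The authors deposited raw UMI counts per gene and barcode, made with Cell Ranger 3.1.0 on GRCm38 and not normalized; the annotation release they counted with is not given in the sources used here. Barcodes at or above 100000 UMIs, 6500 genes or 10% mitochondrial UMIs were dropped, which left 50850 of 55201. Classes were gated per cell from 141 marker genes (lineage score at least 0.3 and a lead of 0.1; leukocyte subset score at least 0.25, a lead of 0.1 and 2 detected markers). Cell names are thus rebuilt and may differ from the study's. No doublet caller was run; 903 cells had a second lineage over the minimum score. UMIs were summed per class and library, and 8 classes with at least 20 cells in each library were tested with edgeR 4.0.16 (quasi-likelihood, TMM, filterByExpr, group only, all 6 libraries, Benjamini-Hochberg over all genes of a class, threshold 0.05; R 4.3.3). The SE is the fold change over the root of F. On simulated counts for endothelial cells, IMQ against Sham, with 10005 genes, 80% of 4-fold and 99% of 16-fold changes were recovered, and 24 of 203 calls were false. For macrophages or monocytes, with 9290 genes, 72% and 96% were recovered, and 17 of 185 calls were false. In both classes the share of false calls was above the threshold of 0.05. Levels between classes were compared by exact sign-flip permutation over libraries on log2(CPM + 1) (Python 3.11.15, scipy 1.17.1). Vessel segments, *Ly6c2* strata and detection of gene pairs were described without a test. Counts of 0 allow up to 3 counts. Intervals are Clopper-Pearson, 95%. Promoter sequences are from RefSeq (GRCm38.p6, found for 5 of the 9 genes). The 9 genes, the gene lists and the rule for named genes (all 9 in every class; of the cascade list those past the threshold, at most 3 per direction and class; the 3 genes of highest r) were chosen with earlier results of these data known. Alternatives were RLE factors, DESeq2 1.42.0, no filter, 2 groups only, a replicate block, each library left out, a stricter gate, cells thinned to 2000 UMIs, under 5% mitochondrial UMIs, a pseudocount of 10 and TMM factors across classes. The values of 1 gene of the cascade list are not reported here.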

Additional observations from a re-analysis of the deposited data

Results flagged for a closer look

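Some genes had every IMQ library above both Sham libraries in a class and below them in another, among classes with a mean level of at least 5 CPM. For *Vcam1* the log2 fold change of IMQ against Sham in lymphatic endothelium (3.34) exceeded that in fibroblasts (-1.57) by 4.91 and that in mural cells (-1.12) by 4.47. For *Itgam* the change in macrophages or monocytes (0.91) exceeded that in Langerhans cells (-0.39) by 1.3. These differences between classes were not tested, and the *Itgam* change in Langerhans cells had an edgeR adjusted p of 0.799. The share of all genes that meet this rule was not counted. With 2 libraries against 2, an exact permutation test cannot go below a p of 0.333. The flagged pairs are thus not a result about the genes. No test for an outlying sample within a group was made, since each group holds 2 libraries.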

How the results depend on the processing

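For IMQ against Sham the number of the 42 tests that passed was 1 in the fit described above. It was 3 with DESeq2, 5 with no filter, and 2 when only the groups compared were fitted. RLE factors, thinned cells and under 5% mitochondrial UMIs gave 1, as did blood endothelial cells alone in place of all endothelium. The strict gate also gave 1, but another: *Itgal* in macrophages or monocytes was lost there and *Vcam1* in lymphatic endothelium passed. With the replicate block the number was 2. Same-numbered libraries of a class correlated at -0.09 to 0.36 in their deviations from the group means (above 0.1 for all pairs of groups in T cells, and not for all in the other 7 classes), so the numbers were not taken to pair the libraries. For IMQ+SHP099 against IMQ the number was 0, and it was 3 with no filter, 1 when only these groups were fitted, and 0 to 1 when a library was left out. In blood endothelial cells alone, IMQ against Sham, it was 0 of 5, and 0 to 5 when a library was left out. The causes were not tested, other than that fewer libraries or other genes enter. Apart from the fits on blood endothelial cells alone described above, these alternatives have no share of all genes passing beside their counts. A rise or fall of such a count is thus not a result about the genes. Of 23 comparisons between classes 19 passed. With 5 libraries p cannot go below 0.0625, so leaving out a library gives no call there; the differences kept their sign. The *Icam1* difference between endothelium and fibroblasts became -0.12 with thinned cells. Of 320 alternative values of 23 member tests, 292 kept direction and call, 18 passed only in the alternative, 4 lost the call (all *Itgal* in macrophages or monocytes) and 6 changed sign, none of them called: *Sele* (-0.19) and *Ackr1* (-0.0019) in endothelium, IMQ against Sham, with thinned cells; *Vcam1* there, from -1.65 to 1.54 over libraries left out; and, for IMQ+SHP099 against IMQ in macrophages or monocytes, over libraries left out, *Itgam* (-0.34 to 0.17), *Itgal* (-1.82 to 0.20) and *Itgb2* (-0.18 to 0.55). The 16 to 64 blood endothelial cells in 5 of the 6 libraries limit every value of that class.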
